A study of Mus musculus with 24 samples.

Results

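The negative limb of the circadian clock was followed in mouse back skin through 6 genes: the period genes Per1, Per2 and Per3, the cryptochrome genes Cry1 and Cry2, and Ciart, which the deposited tables list under its older name Gm129. They were chosen by name and make up 6 of the 29758 gene symbols in the table. Each library held RNA pooled from 2 to 4 wild type male C57BL/6NCrl mice, a common inbred laboratory strain, aged 8 weeks and with hair follicles in telogen, the resting stage. All mice lived under a cycle of 12 h light and 12 h dark, and all were on restricted feeding for 18 to 21 days, so no group ate freely. Food was given for 4 h a day: from ZT0 to ZT4 in the ED group, from ZT5 to ZT9 in the MD group and from ZT12 to ZT16 in the EN group, where ZT counts hours from lights on. Each group had 8 libraries, 1 every 4 h from ZT0 to ZT28, with ZT24 and ZT28 a second visit to the clock times ZT0 and ZT4. The series was made to ask how feeding time acts on the skin clock. A pool is a mixture of animals and was not repeated at any time of the same day, so errors here are the scatter of the 24 libraries about fitted 24 h curves. Whole skin holds many cell types, and fewer cells of a type cannot be told apart from less RNA per cell.

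In the clock of mammalian cells, the proteins CLOCK (or NPAS2) and BMAL1 bind E-box sequences and switch on the Per, Cry and Ciart genes. PER and CRY proteins then enter the nucleus together and silence CLOCK and BMAL1, which closes a loop of about a day. CIART, also called CHRONO, is a further repressor of CLOCK and BMAL1. D-boxes, bound by DBP, TEF, HLF and NFIL3, and elements bound by REV-ERB and ROR receptors time some of these genes within the day, and Per1 also answers to cAMP signalling and glucocorticoids.

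These elements can be read in the promoters that differ most between the 6 genes. RefSeq promoter windows on GRCm38.p6, from 250 bases before to 50 bases after each start, were at hand for 5 of the 6 genes, and none matched Per2. The windows below run 5′ to 3′ on the strand of the gene, and capitals mark the E-box CACGTG, its variant CACGTT and the D-box TTATGNAA, each searched on both strands (in Cry1 the variant is read from the other strand and appears as AACGTG). The first is Ciart, at chr3:95882179-95882478 on the minus strand, then Per3 at chr4:151044616-151044915 (minus), the upstream start of Per1 at chr11:69098699-69098998 (plus) and Cry1 at chr10:85185005-85185304 (minus).
Ciart: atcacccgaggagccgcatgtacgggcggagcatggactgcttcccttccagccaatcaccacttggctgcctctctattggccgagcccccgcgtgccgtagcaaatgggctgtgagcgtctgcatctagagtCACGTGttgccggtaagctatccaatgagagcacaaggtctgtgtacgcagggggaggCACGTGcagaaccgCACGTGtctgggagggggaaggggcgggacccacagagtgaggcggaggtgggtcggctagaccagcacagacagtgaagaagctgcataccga
Per3: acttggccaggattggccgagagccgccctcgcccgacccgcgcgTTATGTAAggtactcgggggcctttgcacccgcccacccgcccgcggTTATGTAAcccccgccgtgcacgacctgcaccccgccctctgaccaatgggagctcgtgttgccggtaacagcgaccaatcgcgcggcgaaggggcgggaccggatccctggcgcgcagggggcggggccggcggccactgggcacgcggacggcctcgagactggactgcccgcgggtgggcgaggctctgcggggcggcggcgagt
Per1: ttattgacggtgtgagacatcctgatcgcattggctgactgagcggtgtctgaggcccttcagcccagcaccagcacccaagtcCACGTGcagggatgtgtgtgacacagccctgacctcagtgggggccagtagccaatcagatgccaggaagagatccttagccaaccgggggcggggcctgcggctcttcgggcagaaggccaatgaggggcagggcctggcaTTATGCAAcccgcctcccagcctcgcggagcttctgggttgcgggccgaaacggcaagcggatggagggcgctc
Cry1: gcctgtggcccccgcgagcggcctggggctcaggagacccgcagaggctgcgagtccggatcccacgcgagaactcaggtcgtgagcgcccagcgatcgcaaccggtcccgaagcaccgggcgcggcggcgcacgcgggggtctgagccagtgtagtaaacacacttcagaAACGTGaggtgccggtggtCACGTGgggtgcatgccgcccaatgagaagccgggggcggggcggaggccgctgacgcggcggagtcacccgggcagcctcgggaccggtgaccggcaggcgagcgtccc
The Ciart window held 3 E-boxes, at positions -116 to -111, -58 to -53 and -44 to -39 from the start, while 7.15% of 32851 mouse windows of the same length held at least 1 and 0.0883% held at least 3. Per3 held 2 D-boxes and no E-box; 3.38% of windows held a D-box and 0.161% held at least 2. The Per1 window held 1 E-box and 1 D-box, and also the REV-ERB and ROR core AGGTCA on its minus strand, a motif in 16.3% of windows. A downstream start of Per1 (chr11:69099902-69100201) held the cAMP element core TGACGT, found in 7.51% of windows, and none of the motifs in capitals. Cry1 held an E-box and the variant next to each other, and Cry2 (chr2:92434020-92434319) held the variant, which occurred in 4.68% of windows. A match is a run of letters and shows no binding, and motifs outside these windows were not searched.

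All 6 genes passed the filter on low counts, together with 15713 others, and counts of spliced RNA were read from the exon rows as CPM, counts scaled to the size of the library. Exon totals of the libraries ran from 13222667 to 26316851, and the 6 genes held from 2263 (Ciart) to 31908 (Per1) exon counts over the 24 libraries. Markers of keratinocytes, fibroblasts, fat, muscle, immune cells, endothelium and melanocytes were present in every group, as whole back skin should have. The pools of ED at ZT24 and EN at ZT0 stood apart by hair keratins of growing follicles (2 of 5 listed genes passed the filter), at 404 and 1017 CPM, against group medians of 0.905 CPM (ED), 0.441 CPM (MD) and 0.664 CPM (EN). The labels also carry a code that 8 sets of 3 libraries at neighbouring times share, 6 of them within 1 feeding group. What the code marks is not given, and it cannot be told apart from the time of day; with it as a term, 8 residual degrees of freedom were left and edgeR called a rhythm in 1 of the 6 genes in ED, 2 in MD and 2 in EN. Of the differences of rhythm given below, that fit called Per3 for ED against MD alone, and it called no difference of mean level among the 6 genes. A gene was taken to have a 24 h rhythm, a different rhythm or a different mean level when the adjusted p of edgeR's quasi-likelihood F test, with Benjamini-Hochberg adjustment over all genes tested, was under 0.05.

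Between 3 and 6 of the 6 genes had a 24 h rhythm in each feeding group, and their fitted peaks lay at different hours in the 3 groups. In the ED group 4 of the 6 had a rhythm (Per2, Per3, Cry1, Ciart), where 0.719% of the 15719 genes tested did. In MD 3 of 6 did (Per2, Per3, Cry1), against 0.942% of all genes, and in EN all 6 did, against 1.06%. The rhythm differed between ED and MD in 5 of 6 genes, Per1 being the one that did not pass (0.350% of all genes). It differed between ED and EN in 3 of 6 (0.401% of all genes) and between MD and EN in 3 of 6 (0.350% of all genes), in both cases Per2, Per3 and Cry1. Leaving out 1 library at a time gave 1 to 5 genes with a rhythm in ED, the fewest without the ZT12 pool, and leaving out ZT24 and ZT28 gave 1.

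**Figure D1:**
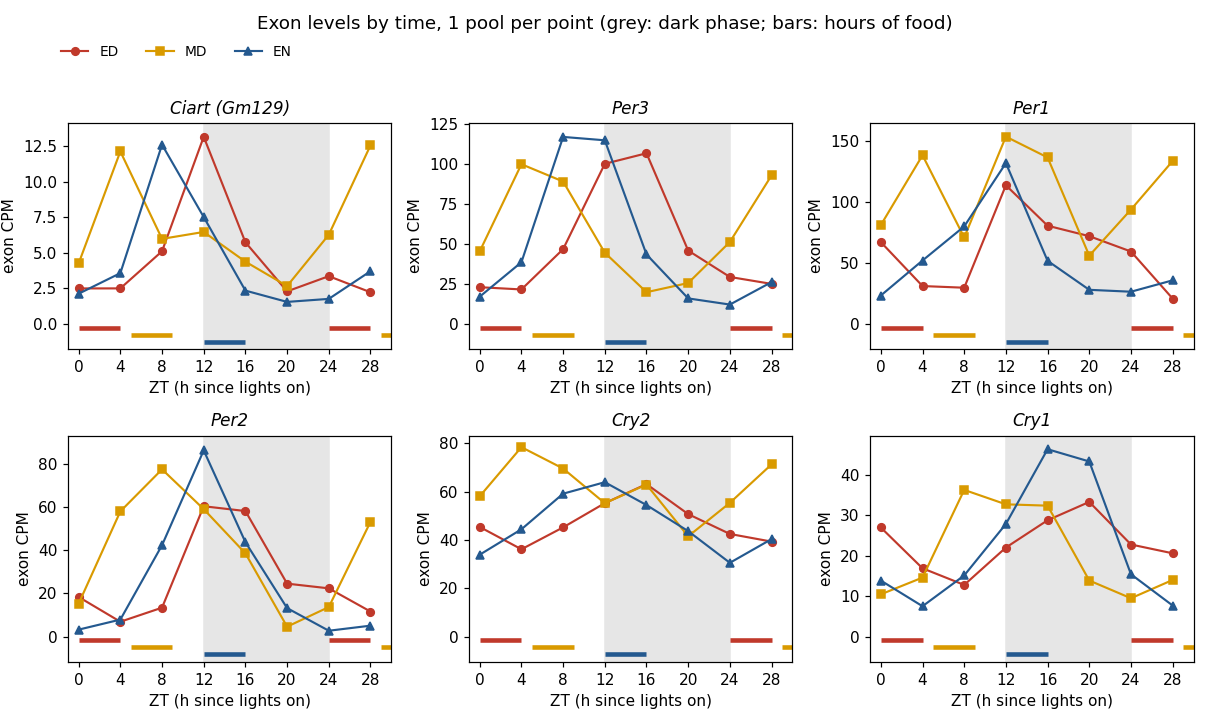
Exon CPM of the 6 genes (vertical axis, from 0) against ZT in hours (horizontal axis), with each point 1 pool, the dark phase in grey and the hours of food as bars under the curves in the colour of each group. Ciart is highest at ZT12 in ED, ZT28 in MD and ZT8 in EN, and Per1 is highest at ZT12 in all 3 groups.

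Per3 gave the clearest curves of the period genes. From ZT0 to ZT28 its exon level was 22.8, 21.4, 46.6, 100.05, 107, 45.7, 29.2 and 24.9 CPM in ED. The same times gave 45.3, 99.8, 89.0, 44.4, 19.7, 25.4, 51.1 and 92.8 CPM in MD. They gave 16.9, 38.5, 117, 115, 43.3, 15.8, 12.0 and 26.0 CPM in EN. The high pair of pools thus lay at ZT12 and ZT16 in ED, at ZT4 and ZT8 in MD and at ZT8 and ZT12 in EN, and at ZT4 the MD pools of both days lay above every ED and EN pool of that clock time. Fitted peaks fell at ZT 14.2 ± 0.333 h for ED, ZT 5.65 ± 0.317 h for MD and ZT 10.5 ± 0.223 h for EN (SE). All rhythms and all differences of rhythm between groups passed, with adjusted p from 3.60e-10 (rhythm in EN) to 2.28e-05 (ED against EN), and each kept its call without any 1 library and without the second day.

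Per2, whose loss weakens rhythms of behaviour in mice, had the widest ratio of highest to lowest pool of the 6 in each group. Its exon level was 18.4, 6.87, 13.4, 60.5, 58.3, 24.6, 22.4 and 11.6 CPM in ED. In MD it was 15.3, 58.1, 77.7, 59.2, 38.7, 4.57, 13.7 and 53.3 CPM. In EN it was 3.21, 7.86, 42.4, 86.5, 43.8, 13.2, 2.69 and 5.04 CPM, so that the highest pool stood 32.1 times above the lowest in EN, against 17.0 times in MD and 8.81 times in ED. Peaks fell at ZT 15.8 ± 0.834 h for ED, ZT 8.70 ± 0.555 h for MD and ZT 12.5 ± 0.447 h for EN. The rhythm passed in ED (adjusted p = 0.0128), MD (0.00365) and EN (8.84e-06). It differed between ED and MD (adjusted p = 0.00414), ED and EN (0.0294) and MD and EN (0.00999). The difference between ED and EN was past the threshold by little: leaving out any 1 of 9 libraries (ED at ZT0, ZT8, ZT16 or ZT24, EN at ZT0, ZT8, ZT12, ZT16 or ZT24) ended it, with adjusted p up to 0.0969. The rhythm in ED was lost without the pool of ZT4, ZT12 or ZT16 (adjusted p up to 0.0637), and 4 of these 6 Per2 calls, those of ED and of the differences between groups, ended without the second day.

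Per1 was high at more than 1 time of day in MD. It is the period gene known to answer fastest to light, cAMP and glucocorticoids. Its exon level was 67.0, 30.9, 29.5, 114, 80.4, 71.8, 59.2 and 20.6 CPM in ED. In MD it was 80.9, 138, 70.7, 154, 136, 55.8, 93.7 and 134 CPM. In EN it was 23.1, 51.9, 79.8, 132, 51.6, 27.8, 26.2 and 35.6 CPM. The highest pool of every group was that of ZT12, the hour of lights off, and MD had a second high at ZT4 on both days, with a low between them at ZT8, taken 3 h after food was opened. A rhythm was called in EN (peak ZT 10.8 ± 0.826 h, adjusted p = 0.0127), and that call ended without the EN pool of ZT0 or of ZT12 (adjusted p up to 0.275) and without the second day. Its fitted peak was at ZT 17.0 ± 0.992 h for ED (adjusted p = 0.0952) and at ZT 9.57 ± 2.77 h for MD (0.596), where the SE leaves the peak poorly placed. The adjusted p of a different rhythm was 0.235 for ED against MD, 0.0650 for ED against EN and 0.362 for MD against EN; without MD at ZT8, ZT16 or ZT20 or ED at ZT12 the second of these passed (down to 0.0103).

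Cry1 had the latest fitted peak of the 6 in every group, except that without the MD pool of ZT20 Per1 peaked later in MD (ZT 13.7 h). It encodes the cryptochrome that holds repression into the end of the cycle. Its exon level was 27.0, 16.9, 12.8, 22.0, 28.8, 33.3, 22.8 and 20.6 CPM in ED. In MD it was 10.4, 14.6, 36.3, 32.7, 32.4, 13.9, 9.47 and 14.0 CPM. In EN it was 13.8, 7.49, 15.1, 27.8, 46.3, 43.3, 15.4 and 7.67 CPM. At ZT8 the pool was the lowest of the group in ED and the highest in MD, and EN was highest at ZT16. Peaks fell at ZT 19.2 ± 0.703 h for ED, ZT 11.8 ± 0.424 h for MD and ZT 16.5 ± 0.321 h for EN. The rhythm passed in ED (adjusted p = 0.0264), MD (1.10e-05) and EN (1.64e-07), and it differed between ED and MD (6.89e-05), ED and EN (0.00408) and MD and EN (7.69e-05). Its rhythm in ED was lost without the pool of ZT4, ZT8, ZT12, ZT16 or ZT20 (adjusted p up to 0.136), and without the second day both that call and the difference between ED and EN ended.

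Cry2, the other cryptochrome, had the narrowest ratio of highest to lowest pool in each group. Its exon level was 45.4, 36.1, 45.2, 55.2, 63.1, 50.7, 42.5 and 39.3 CPM in ED. In MD it was 58.1, 78.4, 69.6, 55.2, 62.9, 41.5, 55.4 and 71.3 CPM. In EN it was 33.9, 44.4, 59.2, 63.9, 54.5, 43.6, 30.5 and 40.4 CPM. The highest pool was 1.75 times the lowest in ED, 1.89 times in MD and 2.09 times in EN, and the ranges of the groups overlapped. Peaks fell at ZT 15.6 ± 0.855 h for ED, ZT 6.72 ± 0.853 h for MD and ZT 11.7 ± 0.585 h for EN. The rhythm passed in EN (adjusted p = 0.00207), with adjusted p of 0.0510 in ED and 0.0868 in MD. The EN call ended without the second day (adjusted p = 0.110). Without any 1 of 5 libraries (ED at ZT0, MD at ZT4, ZT12, ZT16 or ZT20) the ED rhythm passed (down to 0.00436), and the MD rhythm passed without MD at ZT16 (0.00229). It differed between ED and MD (adjusted p = 0.0175), a call that ended without ED at ZT4 or ZT16 or MD at ZT4 or ZT28 (up to 0.0847) and without the second day; the adjusted p was 0.160 for ED against EN and 0.0528 for MD against EN, and without MD at ZT16 both passed (0.0250 and 4.70e-04), as did the second without MD at ZT20.

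Ciart had the earliest fitted peak of the 6 in ED and in EN. Its exon level was 2.49, 2.49, 5.11, 13.2, 5.74, 2.28, 3.35 and 2.22 CPM in ED. In MD it was 4.25, 12.1, 5.98, 6.47, 4.37, 2.65, 6.27 and 12.6 CPM. In EN it was 2.11, 3.56, 12.6, 7.52, 2.33, 1.54, 1.75 and 3.70 CPM. In each group 1 clock time stood out: ZT12 in ED, ZT4 in MD on both days and ZT8 in EN, with highs of 12.6 to 13.2 CPM in all groups. Counts ran from 26 to 256 per library, the fewest of the 6 genes. Fitted peaks were at ZT 12.4 ± 0.886 h for ED, ZT 6.12 ± 0.996 h for MD and ZT 9.16 ± 0.609 h for EN. The rhythm passed in ED (adjusted p = 0.0147) and EN (0.00128), with 0.0645 in MD, and it differed between ED and MD (0.0303), with 0.232 for ED against EN and 0.185 for MD against EN. The ED rhythm was lost without its ZT12 pool (adjusted p = 0.343) and without the second day, the EN rhythm without its ZT8 pool (0.0541), and the difference between ED and MD without any 1 of 7 libraries (ED at ZT4, ZT12, ZT16 or ZT28, MD at ZT4, ZT12 or ZT28; up to 0.137) and without the second day.

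In each group the earliest fitted peak was that of Ciart or Per3 and the latest that of Cry1, apart from MD without its ZT20 pool, where Per1 was latest, and MD without its ZT16 pool, where Cry2 was earliest (ZT 5.70 h). Cry1 peaked after Ciart by 6.83 ± 1.13 h for ED, 5.70 ± 1.08 h for MD and 7.33 ± 0.689 h for EN (SE). The peak of Per3 minus that of Cry1 was -5.08 ± 0.778 h for ED, -6.17 ± 0.529 h for MD and -6.02 ± 0.390 h for EN. That of Per2 minus Cry1 was -3.49 ± 0.986 h for ED, -3.13 ± 0.624 h for MD and -3.97 ± 0.502 h for EN, so that Cry1 followed both genes in every group. Many neighbours in the order could not be ranked: the 95% interval of the gap between Per3 and Ciart included 0 in ED (-0.0417 to 3.53 h) and in MD (-2.46 to 1.51 h), that between Per3 and Cry2 included 0 in all groups, and that between Per1 and Cry1 included 0 in ED and MD. In EN, Per3 followed Ciart by an interval of 0.0782 to 2.52 h, which included 0 without any 1 of 6 EN libraries (ZT0, ZT8, ZT12, ZT16, ZT24 or ZT28). Per2 followed Cry2 by 0.650 to 3.31 h in MD, which included 0 without MD at ZT12, and by 0.00949 to 1.54 h in EN, which included 0 without any 1 of 17 libraries. Per2 followed Per3 by 3.05 ± 0.597 h for MD and 2.05 ± 0.458 h for EN, while in ED the gap of 1.59 ± 0.831 h had an interval that included 0 (-0.181 to 3.36 h).

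**Figure D2:**
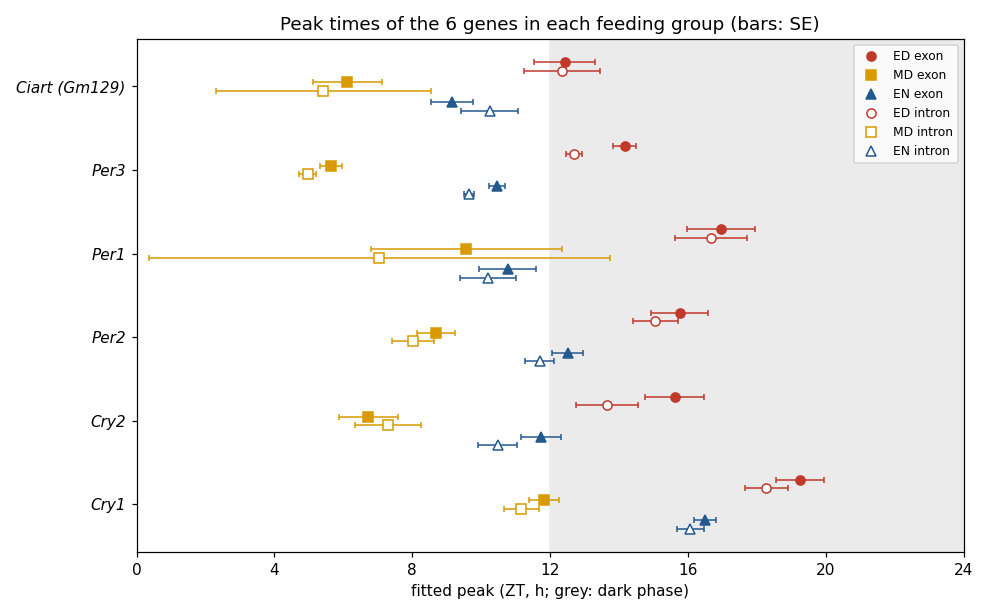
Fitted peak of each gene (rows) in ZT hours (horizontal axis) for the 3 feeding groups, with exon rows filled, intron rows open and bars showing the SE. ED peaks lie latest for every gene and MD peaks earliest, with Cry1 to the right in every group (for Per1 the order of MD and EN turned without the MD pool of ZT4 or ZT20; Cry1 at ZT 19.2 h for ED, ZT 11.8 h for MD and ZT 16.5 h for EN) and a wide bar for Per1 in MD.

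Set against the light cycle, the 6 genes ran late in ED and early in MD, with EN between them. The ED peak came after the MD peak by 6.30 to 8.89 h (median 7.41 h over the 6 genes) and after the EN peak by 2.77 to 6.19 h (median 3.48 h). The MD peak came before the EN peak, with differences of -5.02 to -1.20 h (median -4.24 h); each difference is taken the shorter way round the clock. For Per3 the shifts were 8.51 ± 0.460 h for ED minus MD, 3.71 ± 0.401 h for ED minus EN and -4.81 ± 0.387 h for MD minus EN. For Cry1 they were 7.42 ± 0.821 h, 2.77 ± 0.773 h and -4.66 ± 0.531 h in the same order. Per1 had the longest lag of ED behind EN, at 6.19 h (95% interval 3.44 to 8.95 h), and the shortest lead of MD over EN, at -1.20 h (-7.36 to 4.96 h), an interval that holds the median of the 6. That lead ran from -3.52 h to a lag of 2.95 h when 1 library was left out, turning without the MD pool of ZT4 or ZT20. The interval of ED minus MD for Per1 (1.12 to 13.7 h) included 0 without MD at ZT4, ZT12, ZT20 or ZT28, and those of the other 5 genes excluded 0 for every pair of groups and with each library left out. These intervals are not adjusted for the number of genes. In edgeR's F test a different rhythm did not pass for ED against EN in Cry2 (adjusted p = 0.160) or Ciart (0.232). Nor did it pass for MD against EN in Cry2 (0.0528) or Ciart (0.185).

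Most of the 6 genes departed from 1 shared curve both on the ZT scale and on a scale counted from the meal. Food opened at ZT0 in ED, ZT5 in MD and ZT12 in EN, and the peaks of ED were the latest by ZT. The meals of ED and EN lay 12 h apart in either direction round the day. Which meal counts as the earlier thus depends on where the day is taken to start. Counted from the opening of food, Per3 peaked after 14.2 h for ED, 0.650 h for MD and 22.5 h for EN, Cry1 after 19.2 h, 6.82 h and 4.48 h, and Per2 after 15.8 h, 3.70 h and 0.511 h in the same order. The groups departed from a rhythm shared on the ZT scale in 5 of 6 genes (0.999% of all genes), with adjusted p from 1.65e-09 (Per3) to 0.0253 (Ciart), while Per1 had 0.0603. They departed from a rhythm shared on the food scale in all 6 genes (1.32% of all genes), with adjusted p from 3.12e-11 (Per3) to 0.00685 (Per1). Without the EN pool of ZT12 the second Per1 value was 0.0584. The call of Ciart on the ZT scale ended without ED at ZT4 or ZT28 or MD at ZT4 or ZT12 (up to 0.0645). Without the second day 3 of 6 genes departed on the ZT scale. On the food scale the calls of Per1 (adjusted p = 0.121) and Cry2 (0.0732) ended as well.

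**Figure D3:**
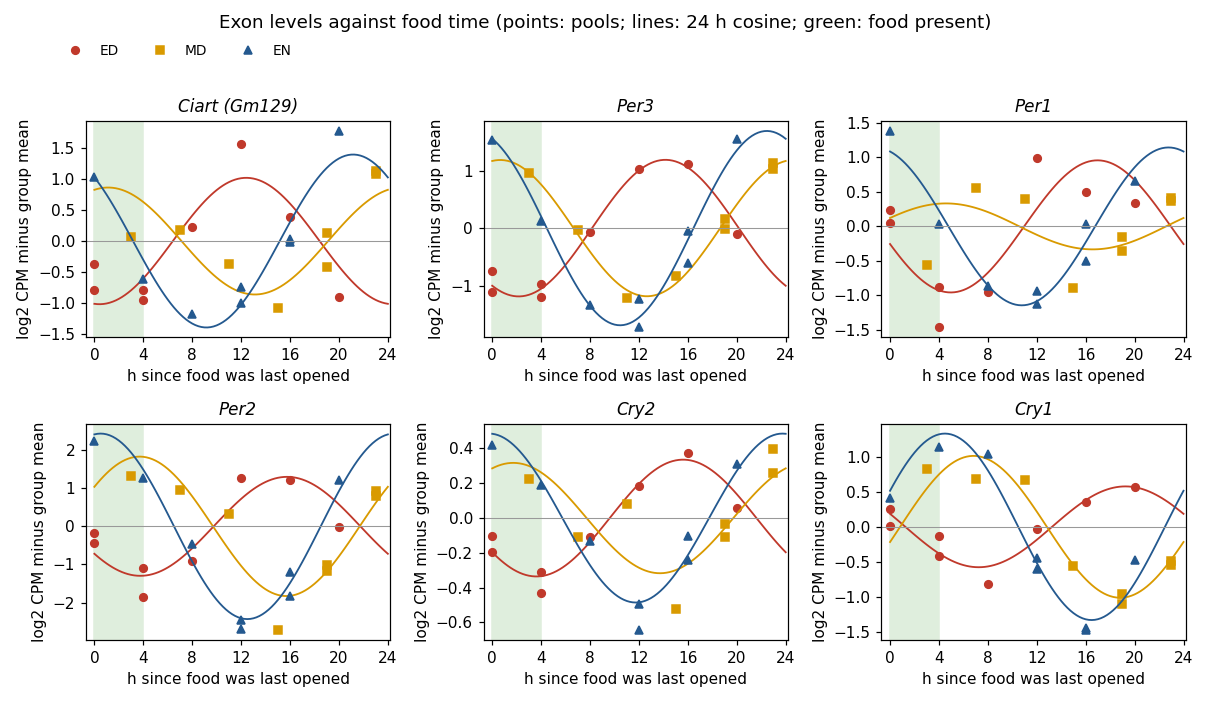
Exon log2 CPM minus the group mean (vertical axis) against hours since food was last opened (horizontal axis), with pools as points, fitted 24 h curves as lines and the hours with food in green. The ED peaks lie 10.1 to 11.9 h from the MD peaks on this scale and 5.81 to 9.23 h from the EN peaks, with Per3 peaks after 14.2 h for ED, 0.650 h for MD and 22.5 h for EN.

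The fitted swing of the 6 genes over the day was largest in EN. The amplitude, from mean to peak on the log2 scale, was highest in EN for each gene, except that without the ED pool of ZT16 that of Per1 was higher in ED (ED minus EN 0.0537, against -0.19 with all pools), and the ratio of each group to EN was 0.433 (Cry1) to 0.837 (Per1) in ED and 0.291 (Per1) to 0.761 (Cry1) in MD. For Per2 it was 1.30 ± 0.270 in ED, 1.83 ± 0.287 in MD and 2.43 ± 0.269 in EN (SE). For Per3 it was 1.19 ± 0.0954 in ED, 1.18 ± 0.101 in MD and 1.69 ± 0.101 in EN. For Cry1 it was 0.58 ± 0.114 in ED, 1.01 ± 0.108 in MD and 1.33 ± 0.109 in EN. The 95% interval of the ED minus EN difference excluded 0 for Per2 (-1.95 to -0.32), Per3 (-0.80 to -0.21) and Cry1 (-1.09 to -0.42) and included it for the other 3 genes. That of MD minus EN excluded 0 for Per3 (-0.81 to -0.20) and for Per1 (-1.57 to -0.0495). The Per1 interval included 0 without any 1 of 6 libraries (MD at ZT8, ZT16 or ZT24, EN at ZT0, ZT12 or ZT20), and the amplitude of Per1 in MD, 0.33, was 0.76 without MD at ZT8 and 0.19 without MD at ZT20. That of Cry1 included 0 by little (-0.65 to 0.00989) and excluded it without any 1 of 5 libraries. Between ED and MD, Cry1 swung less in ED (-0.77 to -0.0991), and the intervals of the other 5 genes included 0.

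**Figure D4:**
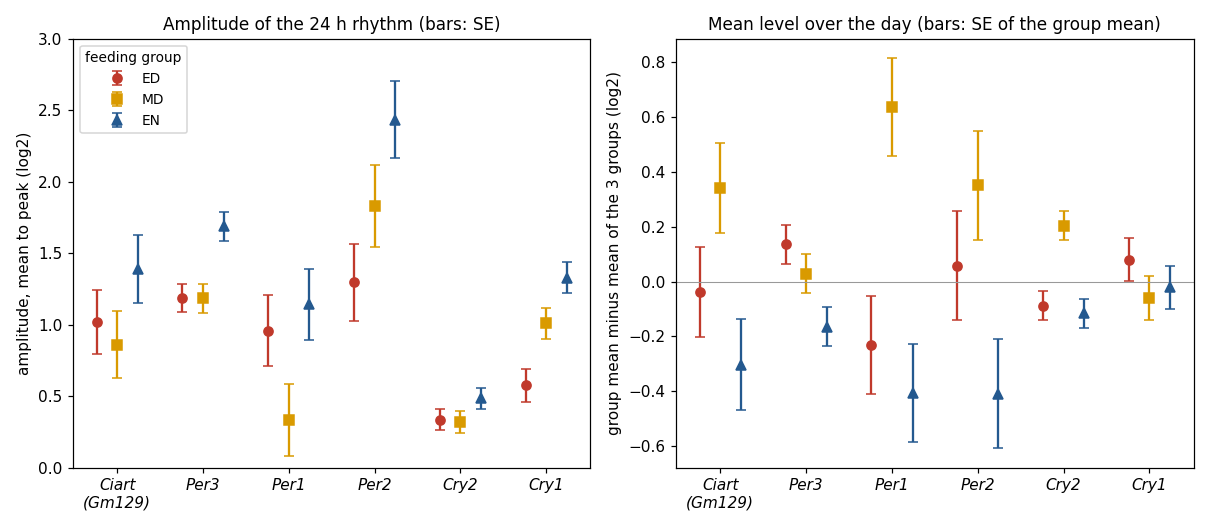
Left, amplitude of the 24 h curve (log2, mean to peak, axis from 0) and right, mean level of each group minus the mean of the 3 groups (log2), for the 6 genes in ED, MD and EN with SE bars. EN has the highest amplitude for every gene (2.43 for Per2; for Per1 only with the ED pool of ZT16 kept), and MD has the highest mean of Per1, Cry2, Per2 and Ciart.

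Over the day as a whole, Per1 and Cry2 were higher in MD than in the other groups. Per1 averaged 59.1 ± 31.2 CPM in ED, 108 ± 36.8 CPM in MD and 53.5 ± 36.8 CPM in EN, and Cry2 47.2 ± 8.82, 61.6 ± 11.6 and 46.3 ± 11.9 CPM in ED, MD and EN (SD, n = 8 each, over the times of day). The ranges overlapped for both genes. Between ED and MD the mean of the fitted curve differed for Per1 (ED minus MD -0.87 ± 0.252, adjusted p = 0.00561) and Cry2 (-0.29 ± 0.0744, 0.00524), 2 of 6 genes, where 23% of all genes passed. Between MD and EN it differed for Per1 (MD minus EN 1.04 ± 0.252, adjusted p = 6.67e-04), Cry2 (0.32 ± 0.0744, 0.00199), Per2 (0.76 ± 0.281, 0.00984) and Ciart (0.64 ± 0.233, 0.0193), 4 of 6, where 30.2% of all genes passed. With 6 genes, neither count is read as particular to them. Between ED and EN none of the 6 and none of the 15719 genes passed with edgeR (0.00%), of which 961 had an unadjusted p under 0.05. Marker sums of some cell types also differed between MD and the other groups, and those of others differed little. Keratinocyte markers had medians of 7034 CPM in ED, 6756 CPM in MD and 7004 CPM in EN. Endothelium markers had medians of 167, 176 and 169 CPM in the same order. All 5 fibroblast markers summed to 41083 to 69194 CPM in ED, 26713 to 42082 CPM in MD and 39964 to 76398 CPM in EN. All 4 fat markers summed to 437 to 627 CPM in ED, 221 to 402 CPM in MD and 421 to 835 CPM in EN, below both other groups in MD. All 5 muscle markers had a median of 9582 CPM in ED, 15665 CPM in MD and 11696 CPM in EN. Their ranges overlapped widely, at 5855 to 17694 CPM in ED, 9146 to 18471 CPM in MD and 7149 to 17966 CPM in EN. The part of these cell types in the mean levels was not tested. Without the MD pool of ZT16, Cry2 did not differ between ED and MD (adjusted p = 0.0519), and Per2 (0.140) and Ciart (up to 0.0971 without it, MD at ZT12, EN at ZT12 or EN at ZT16) did not differ between MD and EN.

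Per kilobase of RNA the order of the 6 genes was Per1, Cry2, Per3, Cry1, Per2 and Ciart. By the deposited RPKM of exon rows, which are scaled to gene length and library size, they averaged 20.8 ± 11.4, 15.4 ± 3.77, 9.92 ± 6.91, 7.96 ± 4.07, 6.04 ± 5.06 and 2.95 ± 2.08 RPKM in that order (SD over 24 libraries, which includes the daily swing). No neighbours in this order lay apart by more than the larger of their SDs.

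Reads from introns come mostly from RNA that is not yet spliced, and their peaks too lay latest in ED and earliest in MD by the median over the 6 genes. Intron counts of Per3 were high, from 311 to 4011 per library. From ZT0 to ZT28 they gave 45.1, 65.9, 169, 326, 227, 80.9, 60.4 and 60.4 CPM in ED. They gave 132, 249, 205, 84.0, 49.7, 64.9, 136 and 239 CPM in MD and 38.3, 152, 373, 292, 103, 36.5, 34.4 and 113 CPM in EN. The highest intron pool was at ZT12 in ED, ZT4 in MD and ZT8 in EN, of which the first came 1 sampling step before the highest exon pool. Of the 6 genes 3 had an intron rhythm in ED and 3 in MD (Per2, Per3 and Cry1 in both) and 6 in EN, against 0.453%, 0.836% and 0.898% of 14585 intron rows. The intron rhythm differed between ED and MD in Per2, Per3 and Cry1 (0.453% of rows), between ED and EN in Per2 and Per3 (0.151%) and between MD and EN in Per2, Per3 and Cry1 (0.274%). The groups departed from a shared intron rhythm in 3 of 6 genes on the ZT scale (0.583% of rows) and in all 6 on the food scale (1.57%). The median shift over the 6 genes was 7.07 h for ED minus MD, 3.12 h for ED minus EN and -4.18 h for MD minus EN.

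Fitted exon peaks came after intron peaks for most genes, though the 95% interval of the gap excluded 0 in only 6 of 18 cases. For Per3 the delay was 1.47 ± 0.279 h for ED, 0.685 ± 0.264 h for MD and 0.818 ± 0.183 h for EN, with 95% intervals above 0 in all 3 groups, though in MD not without its ZT0 or ZT12 pool. Per2 lagged by 0.703 ± 0.448 h, 0.678 ± 0.335 h and 0.815 ± 0.245 h and Cry1 by 0.975 ± 0.484 h, 0.656 ± 0.339 h and 0.419 ± 0.253 h for ED, MD and EN, and of these only the Per2 interval in EN (0.293 to 1.34 h) lay above 0. Cry2 lagged by 1.96 ± 0.695 h for ED (an interval that included 0 without ED at ZT8) and 1.26 ± 0.419 h for EN, while in MD its exon peak was ahead by -0.574 ± 0.631 h. The intervals of Per1 and Ciart included 0 in every group. In EN the fitted exon peak of Ciart was ahead, by -1.09 ± 0.520 h, with an interval that excluded 0 without any 1 of 4 libraries. That of Per1 lagged in EN by 0.580 ± 0.296 h, with an interval that excluded 0 without any 1 of 2 libraries. In the limma test of the exon to intron ratio, no gene of the 6 had a rhythm in ED (0.0585% of 13683 genes), MD (0.0219%) or EN (0.0585%), and Per3 in ED came nearest (adjusted p = 0.0786). The ratio of Per3 departed from a rhythm shared on the food scale (adjusted p = 0.0406, 1 of 6 genes, 0.0585% of all). The mean of the log2 ratio was higher in MD (1.70 ± 0.0585) than in EN (1.33 ± 0.0585) for Per1 (adjusted p = 0.00463), and Cry2 passed as well, 2 of 6 genes against 21.6% of all.

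The lists of other clock genes held further rhythmic genes whose peaks lay in the order ED latest, MD earliest. Of all genes tested, 0.719% had a rhythm in ED, 0.942% in MD and 1.06% in EN. The rhythm differed in 0.350% for ED against MD, 0.401% for ED against EN and 0.350% for MD against EN. Of 4 activators, Arntl (which encodes BMAL1) and Npas2 were rhythmic in all groups and differed between each pair. Arntl peaked at ZT 0.847 ± 0.566 h for ED, ZT 17.5 ± 0.550 h for MD and ZT 21.6 ± 0.414 h for EN, about opposite to Per3. Nr1d1 and Nr1d2, the REV-ERB genes, passed each of the same tests, and Nr1d1, which encodes the repressor REV-ERB alpha, peaked before Ciart, at ZT 9.38 ± 0.339 h for ED, ZT 1.44 ± 0.343 h for MD and ZT 5.96 ± 0.238 h for EN. Of the 4 D-box binding factors, 2 had a rhythm with ED feeding, 3 with MD and 4 with EN feeding. Tef peaked close to Per3 in each group, at ZT 13.8 ± 0.545 h for ED, ZT 6.21 ± 0.487 h for MD and ZT 10.6 ± 0.315 h for EN. Of the 2 Dec genes (Bhlhe40 and Bhlhe41, E-box repressors), 0 passed in ED, 2 in MD and 2 in EN.

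Genes listed as regulators of PER and CRY proteins had no called rhythm, at a share of all genes (0.719% in ED, 0.942% in MD, 1.06% in EN) that would give few calls in a list of this size. The list is mixed and includes genes for kinases and ubiquitin ligases. Among them are Csnk1e (a casein kinase that marks PER for decay) and Btrc (a ligase subunit for PER). Of its 18 measured genes, 0 had a rhythm in any group by edgeR. The mean level differed in 5 of the 18 between ED and MD, Csnk1e and Btrc among them (23% of all genes), and in 4 between MD and EN (30.2% of all genes). Of 12 genes on the CREB and glucocorticoid routes into Per1, 1 had a rhythm (1.06% of all genes), Tsc22d3 (GILZ, induced by glucocorticoids) in EN, with an amplitude of 1.27 ± 0.336 and a peak at ZT 12.9 ± 1.08 h (adjusted p = 0.0308). Its adjusted p was 0.399 in ED and 0.443 in MD. The mean level differed in 4 of the 12 between ED and MD (23% of all genes) and in 7 between MD and EN (30.2% of all genes).

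The likeness of patterns was measured as Pearson's r of log2 CPM over the 24 libraries, which share depth, pools and times, and is given without a test. Among 15713 other genes, those nearest to Per3 were Tef (0.973), Angptl2 (0.899) and Dbp (0.889), and those nearest to Ciart were Tef (0.887), Dbp (0.825) and Nr1d2 (0.819). Wee1, a kinase that holds back mitosis, was nearest to both Per1 (0.928) and Per2 (0.897). For Per1, AK162363 (0.924) and Ctgf (0.923) followed, and for Per2, AK080292 (0.876) and Tef (0.849). Cry2 was nearest to Hlf (0.914), Ccbe1 (0.904) and Timp3 (0.888). Cry1 was nearest to Gm19522 (0.857), Abcg1 (0.845) and Lonrf3 (0.832). Within the 6, Per2 and Cry2 were most alike (0.885), followed by Per3 and Ciart (0.861), while Cry1 had r from -0.164 to 0.541 with the other 5.

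Antisense reads were few at 4 of the 6 genes, with 5 (Per1) to 59 (Per2) counts over the 24 libraries. Ciart had 556 and Cry2 226, and each overlaps an annotated gene on the other strand, C920021L13Rik at Ciart and D930015M05Rik at Cry2 (GENCODE M21). Ciart antisense counts summed to 167 in ED, 264 in MD and 125 in EN. Both rows passed the filter, and neither had a rhythm by edgeR in ED (0.272% of 7729 antisense rows), MD (0.595%) or EN (0.582%).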

How the data were processed

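RNA sequencing libraries of whole back skin were made from total RNA with a stranded kit, per the labels. Per the file headers, the deposited table of raw counts has exon, intron and antisense rows for each gene model. The deposited RPKM table was made with cqn, per its name. The submitters' processing notes name TopHat2, SAMtools, HOMER and mm10, with the program that counted and its treatment of reads with several matches not given in the sources used here. Of rows sharing a symbol the one with the highest total was kept.

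Rows were filtered with filterByExpr (minimum count 10, total 15), scaled by TMM and fitted with edgeR 4.0.16 (R 4.3.3): a mean, cosine and sine of 24 h per feeding group over 24 libraries, 15 residual degrees of freedom, Benjamini-Hochberg adjustment over all rows tested, threshold 0.05. Exon to intron ratios were tested with limma 3.58.1. Peaks and amplitudes came from least squares on log2 CPM (prior count 2) with delta-method SE and 95% intervals. The fits were tested on simulated data. Alternatives were DESeq2 1.42.0 and its size factors, no filter, limma on log2 of RPKM plus 0.1 or 1, no second day, groups fitted alone, each library left out, other periods, a block for sampling time and, added after seeing the data, a code of unstated meaning in the labels as a term and the 95% intervals with each library left out.

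The 6 genes and all lists were chosen with earlier results of these data known. Named beside them are, per list, at most 3 genes with the smallest rhythm p in the group with most calls, genes in counts of 5 or fewer, and for each of the 6 genes the 3 most correlated genes; Btrc was named after its values were seen, and some genes of the lists are not reported by name. Whether pools came from separate animals is not given, so p-values reflect scatter among pools, which may be technical.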

Additional observations from a re-analysis of the deposited data

Results flagged for a closer look

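The ED pool of ZT12 held 13.2 CPM of Ciart in exon rows, farther from the next of the 8 ED pools than a test for outlying samples allows (gap of 0.679 of the range, limit 0.526). The 8 pools are 8 times of day and not repeats of 1 condition, 36 sets of 8 were looked at, and chance flags about 1 in 20 such sets. The ED rhythm of Ciart was not called without this pool (adjusted p = 0.343).

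A difference of rhythm between feeding groups passed in 11 of the 18 tests on exon rows, by edgeR's quasi-likelihood F test with Benjamini-Hochberg adjustment. Of all genes tested, 0.350% passed for ED against MD, 0.401% for ED against EN and 0.350% for MD against EN. For Per2 the adjusted p was 0.00414 for ED against MD, 0.0294 for ED against EN and 0.00999 for MD against EN. For Per3 it was 3.16e-09, 2.28e-05 and 1.72e-07 for the same pairs. For Cry1 it was 6.89e-05, 0.00408 and 7.69e-05. Cry2 (0.0175) and Ciart (0.0303) passed for ED against MD.

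Antisense rows, which no comparison of exons or introns uses, held 556 counts of Ciart over the 24 libraries (24.6% of its exon counts) and 226 of Cry2. They held 59 counts of Per2, 58 of Per3, 57 of Cry1 and 5 of Per1. Ciart and Cry2 overlap annotated genes on the other strand (C920021L13Rik and D930015M05Rik).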

How the results depend on the processing

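Of the counts of genes called and median shifts, 437 values kept within 1.5 times or their error and 33 did not. Of 99 differences in peak or amplitude between groups, genes or row types, 56 had a 95% interval that excluded 0; none of these turned when 1 library was left out, 45 excluded 0 each time, and 17 of the others turned. With the code shared by sets of 3 libraries as a term, an alternative chosen after seeing the data, 1, 2 and 2 rhythms were called in ED, MD and EN, 1 gene differed in rhythm for ED against MD and 0 in the other pairs, 0 differed in mean level in any pair, and 2 departed from a shared rhythm on the ZT scale and 2 on the food scale. The sets follow the time of day, and the shares of all genes called were 0.0763%, 0.172% and 0.0700% for rhythm in ED, MD and EN. Without ZT24 and ZT28, fits had 6 libraries fewer, and the number of the 6 genes called was 1 for rhythm in ED, 2 for ED against MD, 1 for ED against EN, 3 for departure on the ZT scale and 2 for mean level in MD against EN; in intron rows it was 1 for rhythm in ED, 3 in EN and 1 for ED against EN. With limma on log2 of RPKM plus 0.1 it was 1 for rhythm in ED, 0 for mean level in ED against MD and 2 in MD against EN; the cause was not tested. DESeq2 called 5 rhythms in MD. Intron rhythms in ED numbered 5 with no filter and 6 with library sizes of exon rows, and for both the cause was not tested. Leaving out 1 library at a time gave 1 to 5 for rhythm in ED, 3 to 4 in MD, 5 to 6 in EN, 3 to 5 for ED against MD, 2 to 5 for ED against EN, 3 to 4 for MD against EN, 1 to 2 for mean level in ED against MD and 2 to 5 in MD against EN. Without the pools of ED at ZT24 and EN at ZT0, 4, 3 and 5 rhythms were called in ED, MD and EN.

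With sampling time as a replicate block, 4 of 6 genes differed in rhythm in each pair of groups, Per1 passed for ED against EN (adjusted p = 0.0110) and Ciart did not for ED against MD (0.0590). Deviations of libraries with the same time from their fitted curves correlated with r from -0.105 to 0.234 over genes. The fitted curves can take up part of a shared effect, so these r do not settle what such libraries share beyond a time. Ciart had the fewest counts, 26 to 256 a library. Apart from the fit with the code shared by sets of libraries, shares of all genes called under the alternatives are not given here. The counts of the 6 genes under them are therefore not read as particular to these genes.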

Other observations

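A 12 h term was added to the model after the values of Per1 in MD were seen, which leaves 9 residual degrees of freedom. By edgeR it passed for none of the 6 genes in exon rows, and in MD for 2 of 15719 genes (0.0127%). Per1 in MD had a 12 h amplitude of 0.68 (unadjusted p = 7.16e-05, adjusted p = 0.0704). In ED it was 0.57 (unadjusted p = 1.05e-04, adjusted p = 0.707) and in EN 0.15 (0.341 and 0.999). The unadjusted p of Per1 was thus close in ED and MD, and the 12 h shape is not read as particular to MD. Its intron rows had 42.9, 18.5 and 41.6 CPM in MD at ZT4, ZT8 and ZT12, so the low at ZT8 stood in both row types. Per2 in MD had an amplitude of 0.70 (adjusted p = 0.180) and Per3 of 0.0629 (0.982). In ED, Per2 had 0.56 (adjusted p = 0.707) and Per3 0.0887 (0.892). Ciart had 0.54 in ED (adjusted p = 0.707) and 0.52 in MD (0.321).

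Each group was sampled at ZT4 and again a day later at ZT28. In EN, Per1, Per2 and Per3 were lower at ZT28 than at ZT4 by -0.54, -0.63 and -0.56 on the log2 scale, while Cry1, Cry2 and Ciart differed by 0.0324, -0.14 and 0.0525; in ED Per2 was higher by 0.75 and Per1 lower by -0.58. In MD the same differences lay between -0.14 and 0.05 for all 6 genes. The median absolute difference over all genes between ZT28 and ZT4 was 0.20 in ED, 0.14 in MD and 0.20 in EN.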
